A study of Bos taurus with 43 samples.

Results

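The data are microarray profiles of the biceps brachii, a forelimb muscle, from 43 male cattle, and the genes described here are 9 adipocyte and lipid storage genes out of the 20284 gene names on the array. Their probes were those whose gene name, description or RefSeq symbol is CIDEC, FABP4, LPL, CFD, PCK1, ADIPOQ, SCD, FASN or LEP. All 9 genes were on the array, through 17 probes. The arrays were bovine oligonucleotide arrays hybridised in a single colour, and the level used throughout is the normalized log2 signal, the log2 of the scanner's processed signal after cyclic loess over the 43 arrays.

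The animals fall into 4 groups. The 4 positive animals (S21, S54, S56 and S57) were commercial beef cattle sampled at the slaughterhouse, which the labels give as suspected for corticosteroid treatment. The study, which writes P for the S of these names, reports them as positive by thymus histology. It also reports dexamethasone, a synthetic glucocorticoid, in their urine, with the value of S56 below the limit of quantification. The 21 unknown animals came from the same slaughterhouse collection, mostly Charolais, Limousine or their crosses, and their treatment is not known. The 5 K controls (K7, K8, K10, K11 and K12) were Charolais×Limousine bulls and the 13 Holstein controls (C animals) were Holstein beef cattle. Both sets served as negative controls and came from earlier controlled experiments. The Holstein controls differ from the other groups in breed, and both control sets differ from the commercial cattle in origin, along with any treatment. Feeding is not described in the sources used here, and the labels give no age. Dose, time and agent were not set by the study in any animal.

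Skeletal muscle holds fat both outside and inside its fibres. Adipocytes lie between the fibres as intramuscular fat (marbling), and small lipid droplets lie inside the fibres. Adipocytes take up fatty acids that lipoprotein lipase frees from circulating triglycerides, carry them on fatty acid binding proteins, make others from acetyl units, and store them in a single large droplet coated with droplet proteins. They also secrete hormones such as adiponectin, leptin and adipsin, and muscle with more adipocytes is known to carry more of their transcripts. In whole tissue, a lower number of adipocytes and less RNA per adipocyte cannot be told apart, and neither was measured here.

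The tissue label was borne out by its markers. All 10 skeletal muscle markers on the array were well above background on every array of every group, and the brightest was MB, myoglobin. Some arrays stood apart and are named before the results. The 5 K arrays were run apart from all others, with slides, scan days, scanners and versions of the Feature Extraction software of their own. Every difference from the K controls thus cannot be told apart from the array batch. The positive animals shared 2 of the 19 slides and 1 of the 13 scan days with unknown animals. In 5 unknown animals (29, 39, 52, 61 and 76) the added viral spike-in RNAs had a mean log2 signal of 7.75 to 8.41, and in the other 38 animals the lowest was 11.3. The array of animal 76 also had 109 saturated gene spots, with at most 5 on any other array, and was the only array of its slide and of its scan day. The share of spots well above background ran from 40.2% in unknown animal 79 to 97.3% in unknown animal 50. The number of arrays, not a read depth, limits the precision of all values.

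FABP4, the fatty acid carrier that makes up much of the soluble protein of fat cells, gave the largest separation between groups. Its normalized log2 signal was 4.87 in K7, 6.44 in K8, 4.60 in K10, 5.18 in K11 and 1.75 in K12. In the positive animals it was 9.46 in S21, 10.10 in S54, 10.34 in S56 and 9.30 in S57. The 13 Holstein controls ran from 6.79 through a median of 9.88 to 11.26, and the 21 unknown animals from 7.97 through 9.40 to 12.97. Every K control lay below every animal of the other 3 groups, and those 3 groups overlapped one another. The probe was not well above background in 1 array, that of a K control.

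CIDEC, a protein of the droplet surface that lets droplets fuse and grow, followed the same order. The K controls gave 5.16 in K7, 6.77 in K8, 4.75 in K10, 5.93 in K11 and 4.29 in K12. The positive animals gave 9.07 in S21, 9.57 in S54, 10.31 in S56 and 8.93 in S57. The Holstein controls ran from 6.52 through 9.27 to 10.97, and the unknown animals from 6.69 through 8.76 to 12.96. The positive animals lay wholly above the K controls, while the lowest Holstein control (C44) and the lowest unknown animal (36) fell just under K8, the highest K control.

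LPL, the lipase that frees fatty acids from lipoproteins and which muscle fibres make as well as fat cells, was 11.86 in K7, 10.96 in K8, 11.35 in K10, 11.63 in K11 and 12.20 in K12. It was 13.59 in S21, 13.46 in S54, 12.89 in S56 and 13.26 in S57, all above the K controls. The Holstein controls ran from 11.74 through 12.47 to 13.30 and overlapped both. The unknown animals ran from 11.63 through 13.81 to 14.34. Among them animals 269, 270, 263, 266 and 81 were lowest, and the first 4 of these were on the same scan day.

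ADIPOQ, adiponectin, the hormone made almost only by adipocytes, was dim. It was well above background in 4 of 4 positive animals, 8 of 13 Holstein controls, 13 of 21 unknown animals and 0 of 5 K controls. The K controls gave 2.56 in K7, 2.21 in K8, 2.16 in K10, 4.11 in K11 and 1.15 in K12, and the positive animals gave 4.87 in S21, 5.93 in S54, 5.34 in S56 and 4.10 in S57. The highest K control, K11, thus reached the lowest positive animal, S57. Holstein controls ran from 2.15 through 5.19 to 7.13, and the unknown animals from 1.85 through 4.58 to 9.57. The Holstein and unknown groups overlapped both other groups.

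CFD, adipsin or complement factor D, a serine protease secreted by fat cells, was bright in every array. The K controls gave 9.79 in K7, 10.90 in K8, 10.14 in K10, 11.23 in K11 and 8.98 in K12, and the positive animals kept within 11.36 to 11.69. In the Holstein controls it ran from 10.66 through 11.31 to 11.82, and the unknown animals from 10.65 through 11.46 to 13.15. The positive animals lay above all K controls by a small margin over K11. Within the K controls, K12 was lowest for ADIPOQ, CFD, CIDEC and FABP4.

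LEP, leptin, the satiety hormone of fat cells, was too dim for the main tests. It failed the filter on dim probes, being under a log2 signal of 4 on 32 arrays, and was well above background in 4 of 5 K controls, 2 of 4 positive animals, 11 of 21 unknown animals and 2 of 13 Holstein controls. Its values ran from 3.21 to 4.88 in the K controls, from 3.09 to 3.72 in the positive animals, from 2.66 to 4.64 in the unknown animals and from 2.65 to 4.10 in the Holstein controls, all overlapping. The order of the group means, highest in the K controls, was not that of ADIPOQ or CFD.

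Of the enzymes, FASN, the fatty acid synthase, was 11.04 in K7, 11.25 in K8, 10.82 in K10, 10.999 in K11 and 10.93 in K12 on its brightest probe. It was 10.50 in S21, 10.65 in S54, 11.60 in S56 and 10.77 in S57, and the groups overlapped. The Holstein controls ran from 10.72 through 11.38 to 12.24, and the unknown animals from 9.84 through 11.22 to 13.35, the highest being animal 76. FASN therefore spread most among the unknown animals and least among the K controls, with SDs of 0.82 and 0.16.

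SCD, stearoyl-CoA desaturase, which makes oleic acid from stearic acid, was 11.997 in K7, 12.003 in K8, 12.29 in K10, 12.11 in K11 and 12.29 in K12 on its brightest probe. It was 11.69 in S21, 10.84 in S54, 11.93 in S56 and 11.61 in S57, all below the lowest K control, S54 by the widest margin. The Holstein controls ran from 11.62 through 12.45 to 13.12 and the unknown animals from 11.53 through 12.32 to 13.22, each overlapping both other groups.

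PCK1, the enzyme that feeds glycerol synthesis for triglycerides in fat cells and glucose synthesis in liver, was the most variable among the unknown animals. There it ran from 1.19 in animal 60 through a median of 5.64 to 9.21 in animal 270, with animals 269 and 265 close behind at 9.17 and 8.86. Those 3 animals shared a scan day. The K controls gave 3.94 in K7, 4.32 in K8, 5.30 in K10, 4.22 in K11 and 4.41 in K12, and the positive animals gave 2.73 in S21, 3.59 in S54, 4.26 in S56 and 2.83 in S57. Holstein values ran from 3.81 through 4.70 to 6.45. Only 1 of the 4 positive arrays was well above background for PCK1, against 3 of 5 K controls and 16 of 21 unknown animals, so the low values are near the floor of the array.

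**Figure D1:**
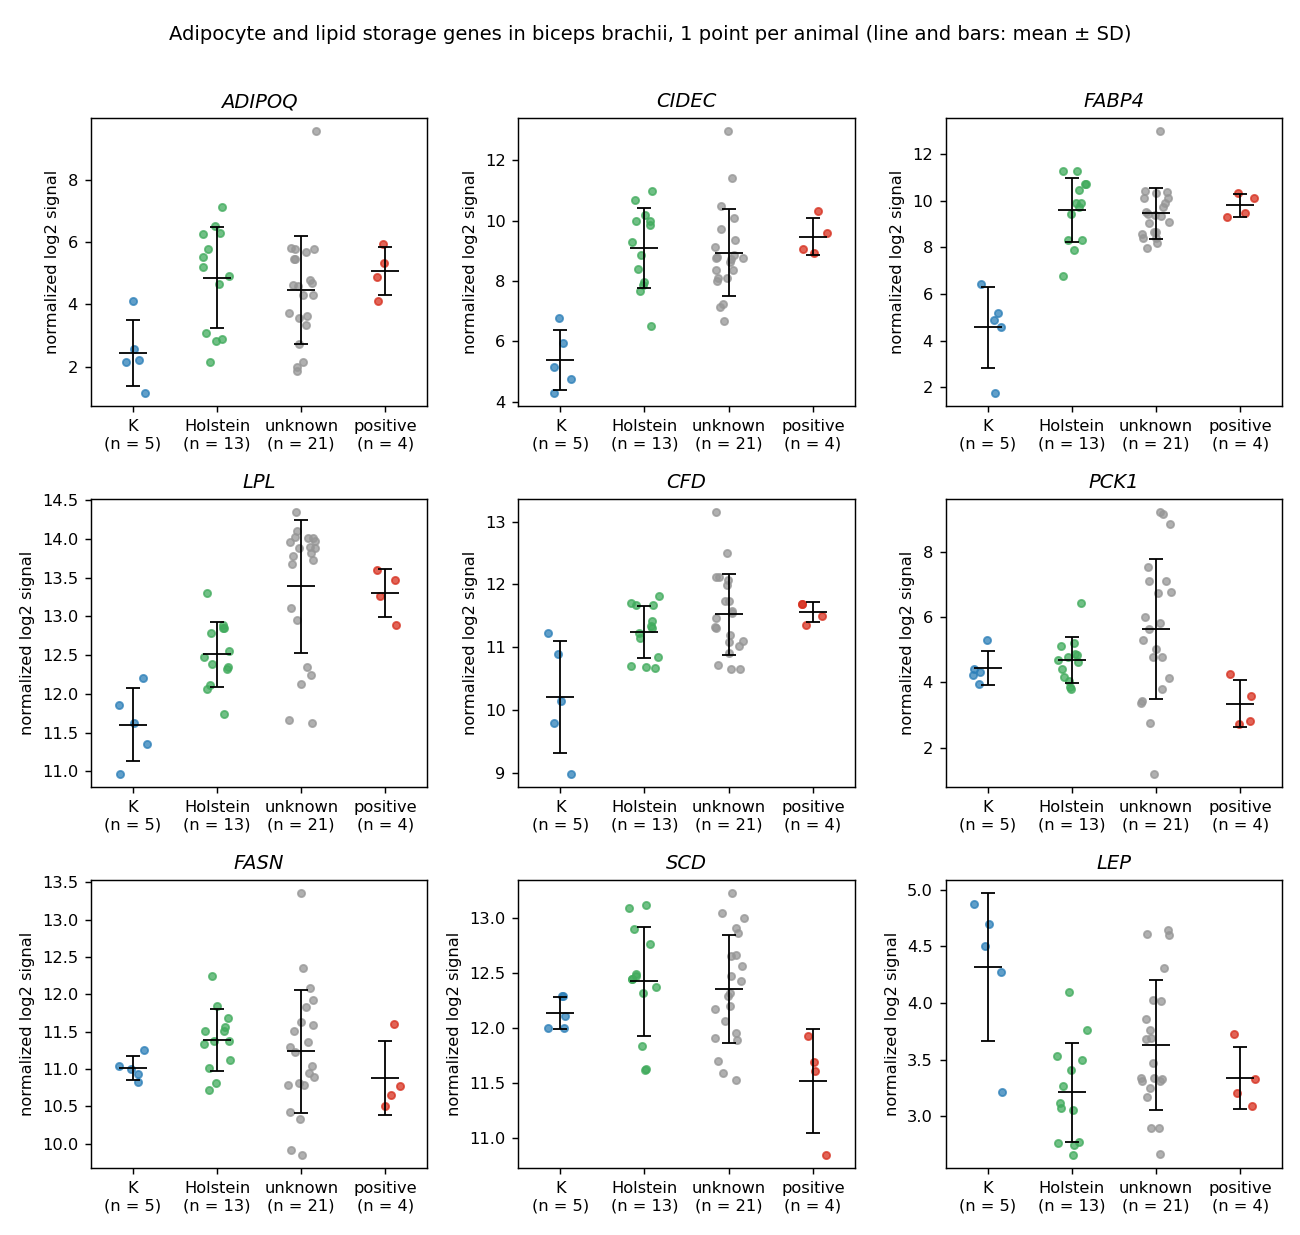
Normalized log2 signal (vertical axis) of each of the 9 genes in every animal, by group on the horizontal axis, with 1 point per animal and lines and bars for mean ± SD. FABP4 in the 5 K controls (1.75 to 6.44) sits wholly below the other 3 groups, while FASN overlaps between groups. SCD in the positive animals (10.84 to 11.93) sits wholly below the K controls, and LEP is at or under a log2 signal of 4.88 in every animal.

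The first comparison sets the positive animals against the K controls, the control set closest in breed to the commercial cattle. Of the 8 genes that passed the filter, 5 were higher in the positive animals (FABP4, CIDEC, ADIPOQ, LPL and CFD) and PCK1 was lower, when called at an adjusted p under 0.05 and at least 2-fold. Across the array 28.1% of the 16354 probes tested were called, 14.4% higher and 13.8% lower, so a call by itself is common here. The median log2 change of the 8 genes was 1.53, beside -0.03 over all probes tested. Of the probes called, 51.1% were higher, a share that was 69.1% under 75th percentile scaling, 39.1% under quantile normalization and 33.5% with loess on every pair of arrays.

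FABP4 was 37.6-fold higher in the positive animals, a log2 change of 5.23 ± 0.75 (SE), with an adjusted p of 0.00026 by limma. CIDEC was 17.02-fold higher, a log2 change of 4.09 ± 0.48 with a limma adjusted p of 7.7e-05. Both were called in all 20 alternative settings of processing, and their lowest log2 changes there were 3.37 and 2.82, both with normexp background correction. Without K12, the array not well above background for FABP4, its log2 change was 4.53. LPL was 3.25-fold higher, with a log2 change of 1.70 ± 0.25 (limma adjusted p 0.00034), also called in all 20.

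ADIPOQ was at least 3.42-fold higher in the positive animals, since no K control rose well above background. Its log2 change was 2.62 ± 0.54 with a limma adjusted p of 0.0023. The call was lost with pairwise loess over all array pairs (1.11, limma adjusted p 0.14), with the authors' normalized table (1.87, 0.14) and with normexp background correction, where the change was 0.59. Another probe for adiponectin, listed on the array under the older name ACRP30 and outside the matching rule, was 2.98 ± 0.36 higher (limma adjusted p 9.4e-05), being well above background in 4 of 4 positive animals and 1 of 5 K controls.

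CFD was 2.55-fold higher, a log2 change of 1.35 ± 0.39 with a limma adjusted p of 0.015. With scan day as a random block its adjusted p was 0.057. PCK1 was 2.12-fold lower, a log2 change of -1.09 ± 0.35 with a limma adjusted p of 0.026. With 1 of 4 positive and 3 of 5 K arrays well above background, its size rests on values near the floor. This call was lost in 9 of 20 settings, among them without S21 (log2 change -0.88), without S57 (-0.91) and without K10 (-0.87), and its change was -0.02 with normexp. FASN did not differ beyond the spread on its brightest probe (log2 change -0.13 ± 0.22, limma adjusted p 0.64), and SCD was 0.62 ± 0.21 lower (limma adjusted p 0.032), under the 2-fold limit.

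The probes of FASN and SCD did not move together. FASN has 4 probes, of which A_73_101323 and A_73_104455 were lower in the positive animals by log2 changes of -1.64 and -1.56 and were called. A_73_101323 was well above background in 2 of 4 positive animals, so the size of its change rests on values near the floor. A_73_101920 was at -0.65, under the 2-fold limit. SCD has 6 probes, and A_73_106709 and A_73_114731, which failed the filter on dim probes, were well above background in 4 of 4 positive animals and 0 of 5 K controls. In a fit without the filter they were at least 2.59-fold and at least 3.45-fold higher (limma adjusted p 1.2e-05 and 1.4e-05), opposite in direction to the brightest SCD probe. These same probes were well above background in 8 and 6 of the 21 unknown animals and in 0 and 1 of the 13 Holstein controls. Which transcripts of the 2 genes each probe reads is not known here.

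The second comparison, between the 2 control sets, holds no suspected treatment and differs in breed, experiment, array batch and, by the study's methods, age range and body weight. FABP4, CIDEC, ADIPOQ and CFD were higher in the Holstein controls, 4 of the 8 genes, and none was lower. Across the array 20.6% of probes were called, 10.9% higher and 9.69% lower. The median log2 change of the 8 genes was 0.98, beside 0.01 over all probes. Of the probes called, 52.9% were higher in the Holstein controls, and 35.4% under 75th percentile scaling.

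FABP4 was 32.6-fold higher in the Holstein controls than in the K controls (log2 change 5.03 ± 0.73, limma adjusted p 2.4e-05) and CIDEC was 13.1-fold higher (3.71 ± 0.62, limma adjusted p 1e-04). With normexp these log2 changes were 3.36 and 2.72, and without K12 that of FABP4 was 4.32, all still called. ADIPOQ was at least 2.98-fold higher, with a log2 change of 2.42 ± 0.74 (limma adjusted p 0.012). The ACRP30 probe gave 2.28 ± 0.57 (limma adjusted p 0.003). With 9 of 13 Holstein controls and 1 of 5 K controls well above background, its size rests on K values near the floor. CFD was 2.05-fold higher (1.04 ± 0.29, limma adjusted p 0.0068), close to the 2-fold limit, and without K7 or K12 its log2 change was 0.93 or 0.73 and the call was lost. LPL was 0.91 ± 0.22 higher (limma adjusted p 0.0027) and fell under the 2-fold limit. FASN, SCD and PCK1 differed by log2 changes of 0.38, 0.28 and 0.25 with limma adjusted p values of 0.11, 0.30 and 0.56. With normexp only 2 of the 8 genes were called, both over all 21475 probes, which all passed the dim filter on that scale, and over the 16354 probes of the other fits.

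The third comparison sets the unknown animals against the K controls. FABP4, CIDEC, LPL and CFD were higher, 4 of the 8 genes, and none was lower. Across the array 10.4% of probes were called, 5.24% higher and 5.19% lower, the median log2 change being 1.55 for the 8 genes and 0.01 for all probes. Of the probes called, 50.2% were higher, and 39.0% with loess on every pair of arrays. FABP4 was 29.6-fold higher (4.89 ± 0.58, limma adjusted p 2.3e-06), CIDEC 11.7-fold higher (3.55 ± 0.65, limma adjusted p 0.00029), LPL 3.45-fold higher (1.79 ± 0.39, limma adjusted p 0.0016) and CFD 2.49-fold higher (1.31 ± 0.34, limma adjusted p 0.0058). Without the 5 animals of low spike-in level the log2 changes were 4.59, 3.21, 1.71 and 1.41, and all 4 genes were still called. With normexp FABP4 and CIDEC were at 3.22 and 2.62, and without K12 FABP4 was at 4.18. CFD lost its call with scan day as a random block (limma adjusted p 0.07).

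ADIPOQ was at least 2.27-fold higher in the mean of the unknown animals, of which 13 of 21 were well above background. The log2 change of 2.03 ± 0.77 missed the threshold with a limma adjusted p of 0.06 and was called in 4 of 18 settings. Among these were the fits without K11 (log2 change 2.45, limma adjusted p 0.045) and without unknown animal 76 (1.77, limma adjusted p 0.036). The ACRP30 probe was 2.63 ± 0.55 higher and called (limma adjusted p 0.0011). With 17 of 21 unknown animals and 1 of 5 K controls well above background, its size rests on K values near the floor. PCK1 differed by 1.21 ± 0.93 with a limma adjusted p of 0.37, the SD being 2.14 in the unknown animals and 0.51 in the K controls. FASN and SCD differed by 0.23 and 0.22, with limma adjusted p values of 0.70 and 0.53.

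These 3 comparisons share the same 5 K arrays, so a low level in those arrays enters all of them, and their values are given side by side without a test between them. In the fit without the filter, LEP was lower than in the K controls by log2 changes of -0.98 in the positive animals, -1.10 among Holstein controls and -0.69 among unknown animals, with limma adjusted p values of 0.021, 0.0022 and 0.11. The first reversed to 0.25 under 75th percentile scaling and was called in 4 of its 15 alternatives, the second in 9 of its 11. The sizes of these LEP changes rest on values near the floor. LEP was well above background in 2 of 4 positive animals, 2 of 13 Holstein controls and 11 of 21 unknown animals.

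The fourth comparison, positive against unknown animals, is the 1 comparison within the slaughterhouse collection and shares slides between groups. None of the 8 genes was called by limma, and at an unadjusted p under 0.05 there were 2, SCD and PCK1, both lower in the positive animals. At that unadjusted limit 23.8% of all probes tested passed, 11.8% higher and 12% lower, so 2 of 8 is near the background. Across the array 0.0489% of the probes were called, 8 probes, all lower. The median log2 change was -0.02 for the 8 genes and -0.05 for all probes. SCD was lower by 0.84 on the log2 scale (-0.84 ± 0.27, limma adjusted p 0.11) and PCK1 differed by -2.29 ± 1.04 (limma adjusted p 0.19). ADIPOQ, CIDEC and FABP4 differed by 0.59 ± 0.85, 0.54 ± 0.70 and 0.35 ± 0.55, CFD by 0.04 ± 0.32, LPL by -0.09 ± 0.43 and FASN by -0.36 ± 0.42. For each of these 6 genes the SE was larger than the difference.

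On the 2 shared slides, with 4 positive and 4 unknown animals and the slide as a block, SCD differed by -0.69, PCK1 by -0.81, ADIPOQ and FABP4 by 0.31 each, CFD by -0.90, FASN by -0.72, CIDEC by -0.28 and LPL by -0.01, and no probe of the array was called. The PCK1 difference shrank there, the 3 unknown animals of highest PCK1 being on other slides. Without the 5 animals of low spike-in level SCD differed by -0.84 (limma adjusted p 0.07) and ADIPOQ by 1.08 (limma adjusted p 0.23). In the fit without the filter, the dim SCD probes A_73_106709 and A_73_114731 were 3.04-fold and 4.33-fold higher in the positive animals, with limma adjusted p values of 0.047 and 0.046. These folds rest on values near the floor, since only 8 and 6 of the 21 unknown arrays were well above background. That fit called 1390 probes, 1007 of them higher, in place of 8.

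**Figure D2:**
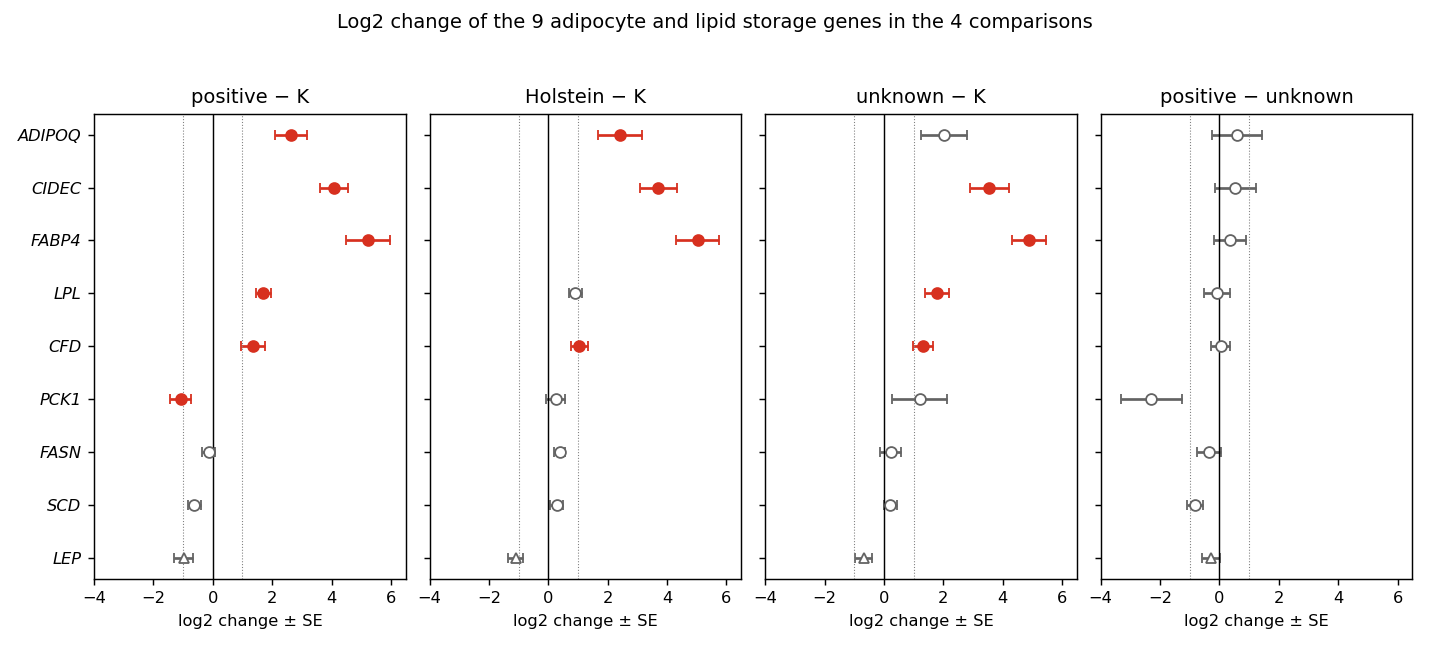
Log2 change ± SE (horizontal axis) of the 9 genes (vertical axis) in the 4 comparisons, with red points for calls at an adjusted p under 0.05 and at least 2-fold, open points for genes not called, triangles for LEP fitted without the filter on dim probes, and dotted lines at 2-fold. FABP4 and CIDEC are 4.09 to 5.23 higher in the positive animals than in the K controls, and no gene is called between positive and unknown animals.

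The other genes of fat storage were followed through 3 lists. Of 26 further adipocyte genes tested, 8 were higher and 0 lower in the positive animals than in the K controls, with a median log2 change of 0.62 beside -0.03 for all probes, and 14.4% of all probes were called higher there. The largest were TUSC5 (TRARG1, a protein of insulin-responsive glucose transport in fat cells) at 2.97, MGLL (monoglyceride lipase) at 2.23, RETN (resistin) at 2.04 and FABP5 (another fatty acid carrier) at 1.87. In the Holstein controls 9 were higher and 0 lower (median 0.33, beside 10.9% of all probes called higher), led by TUSC5 at 2.46, LIPE (hormone-sensitive lipase) at 1.65 and the triglyceride-forming enzymes DGAT2 and DGAT1 at 1.58 and 1.35. In the unknown animals 8 were higher and 0 lower (median 0.60, beside 5.24% of all probes called higher), led by TUSC5 at 2.53, PPARG (the master regulator of adipocyte differentiation) at 1.40, DGAT1 at 1.33 and MGLL at 1.24. Between positive and unknown animals 0 were called by limma, RETN and PNPLA2 (adipose triglyceride lipase) coming closest with log2 changes of 1.41 and 0.85 and an adjusted p of 0.11 each.

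Of 14 genes of fatty acid synthesis, 2 were higher than in the K controls in the positive animals, among them SLC25A1, the citrate carrier, at 1.35. The Holstein controls had 2, among them ELOVL6, a chain elongase, at 1.28. The unknown animals had 3, among them ELOVL6 at 1.26 and THRSP, a lipogenic regulator, at 1.02. None was lower in any of the 3, and 0 were called by limma between positive and unknown animals. Beside the 14.4%, 10.9% and 5.24% of all probes called higher in these 3 comparisons, 2 of 14 is near the background in the positive animals and the Holstein controls. The medians were -0.06, 0.00, 0.12 and 0.00, near those of all probes.

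Of 22 genes of muscle fatty acid oxidation and its control, 5 were higher and 1 lower in the positive animals than in the K controls, 4 higher and 1 lower in the Holstein controls, and 4 higher and 0 lower in the unknown animals, beside the same shares of all probes called higher. The largest value was that of ANGPTL4, a secreted inhibitor of lipoprotein lipase made by both fat and muscle, at 6.30 ± 0.37, 4.14 ± 0.69 and 4.73 ± 0.47 (limma adjusted p 1.8e-06, 9.7e-05 and 2.8e-07). PPARGC1A, a regulator of mitochondrial genes, was higher by 1.82, 2.65 and 1.502. PDK4, which spares glucose by blocking pyruvate dehydrogenase, was 3.20 and 2.41 higher in the Holstein controls and the unknown animals. Between positive and unknown animals 0 were called by limma, with ANGPTL4 at 1.57 ± 0.50 (adjusted p 0.11).

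Markers of other cells moved in the same comparisons, and their part in the results was not tested. In the positive animals 5 of 8 endothelial markers were higher than in the K controls (VWF by 1.55, TEK by 1.64), as were 2 of 2 red blood cell markers (HBA by 1.71) and 1 of 7 macrophage markers (MRC1 by 2.10). Both brown fat markers tested, CIDEA and DIO2, were also higher, by 1.43 and 2.37, CIDEA being counted among the further adipocyte genes as well, and 1 of 5 smooth muscle markers. There 5 of 10 fibroblast markers were lower (COL1A1 by -2.35), and of 10 skeletal muscle markers 4 were lower and 1 higher, MYH1, a fast myosin, being at -4.25. The 4 Schwann cell markers gave 0 calls in all 4 comparisons. The counts for the positive animals stand beside the 14.4% of all probes called higher and 13.8% called lower there, and 1 of 7 is near that background.

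In the Holstein controls 3 of 10 fibroblast markers (LUM by 2.57) and 3 of 7 macrophage markers (AIF1 by 1.76) were higher than in the K controls, as was 1 of 2 red blood cell markers (HBA by 1.67), and 1 fibroblast marker was lower. Of the skeletal muscle markers 2 were higher and 2 lower, and 1 smooth muscle marker was lower. In the unknown animals 2 fibroblast markers and MRC1 were higher, 1 fibroblast marker was lower, 2 muscle markers were lower and DIO2 was higher. Of all probes 10.9% were called higher and 9.69% lower in the Holstein controls, and 5.24% and 5.19% in the unknown animals, so that single calls in a list of 10 are near the background. None of the 8 marker lists had a call by limma between positive and unknown animals. The defining brown fat gene UCP1 was well above background in no K control and in at least 1 animal of each other group.

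Summed over its markers, the mean log2 level of the endothelial list, whose brightest gene was VWF, was 12.4 in the K controls, 12.1 in Holstein controls, 13.2 in unknown and 13.5 in positive animals. The fibroblast list, whose brightest gene was DCN, was at 14.3, 15.4, 14.5 and 13.2 in that order, and the skeletal muscle list at 19.8, 20.5, 19.8 and 20.03. The macrophage list, led by MRC1, was at 10.9, 11.98, 12.1 and 11.6. All of its genes, and all endothelial, fibroblast and skeletal muscle markers, were well above background on at least 1 array of each group.

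The spread between animals of 1 group was large for part of the 9 genes. Within the Holstein controls the SD of ADIPOQ was 1.63, above that of 96.6% of the probes, and those of FABP4 and CIDEC were 1.38 and 1.34, above 95.3% and 94.998%. FASN, LPL and CFD had SDs near the median of all probes in that group, 0.41. Within the unknown animals the SD was 1.73 for ADIPOQ, 1.43 for CIDEC and 2.14 for PCK1, above 97.2%, 94.2% and 98.8% of the probes. SCD, with 0.49, lay under the median of 0.62.

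The animals high for ADIPOQ were in part those high for CIDEC and FABP4. Among the Holstein controls, C45 was highest for all 3 and C44 was lowest for all 3. Of the 5 highest Holstein controls for ADIPOQ, 5 were among the 5 highest for CIDEC and 4 for FABP4, and of the 5 highest unknown animals 3 and 2 were. Such overlap was not particular to these genes. It was 4 for PCK1, 3 each for CFD, FASN, LPL and SCD and 2 for LEP among the Holstein controls. For the unknown animals it was 3 each for FASN and SCD, 1 each for CFD and PCK1 and 0 for LEP and LPL. In the Holstein controls the span from lowest to highest was 21.9-fold for CIDEC and 22.2-fold for FABP4, while CFD spanned 2.23-fold. ADIPOQ is given no fold here, since C44 was not well above background for it. Among the unknown animals, animal 76 was highest for ADIPOQ, CIDEC, FABP4 and FASN, and 263 and 36 were among the 5 lowest for these 4 genes. The 5 lowest for ADIPOQ (263, 270, 269, 36 and 266) and the 5 lowest for FASN (265, 263, 36, 266 and 270) were all on the same scan day. Animal 76 was at 9.57 for ADIPOQ and the next animal, 49, at 5.82, and 76 is 1 of the 5 of low spike-in level.

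To follow this within groups, ADIPOQ was used as the anchor, since it is the gene of the 9 most restricted to fat cells, and group means were removed. CIDEC rose by 0.70 ± 0.07 (SE) per log2 unit of ADIPOQ over the 43 arrays (r = 0.84, rho = 0.82, permutation p 1e-05 for both, limma adjusted p 9.4e-09). FABP4 rose by 0.64 ± 0.07 (r = 0.81, rho = 0.77, permutation p 1e-05 for both, limma adjusted p 1.8e-07). FASN rose by 0.29 ± 0.05 (r = 0.71, rho = 0.64, permutation p 1e-05 and 2e-05, limma adjusted p 0.00042). The permutations were within groups, and 1e-05 is the smallest p they can give.

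In this fit 20.4% of the 16353 probes were called at an adjusted p under 0.05, 9.18% rising and 11.2% falling, beside 3 of the 7 genes tested. That share depends on the setting, at 3329 probes as reported, 1359 without animal 76, 24 without the 5 animals of low spike-in level, 7 with scan day in place of group and 12 with the ACRP30 probe as anchor. CIDEC and FABP4 were called in all 28 alternatives, with r of at least 0.76 and 0.73. FASN was called in 26 of 29, and not with scan day in place of group (r = 0.35), in the Holstein controls alone (r = 0.59) or without the 5 animals of low spike-in level (r = 0.60, limma adjusted p 0.054).

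By r with ADIPOQ, CIDEC was 4th, FABP4 6th and FASN 10th of the 16353 probes. LPL rose by 0.16 ± 0.06 per log2 unit (r = 0.38, limma adjusted p 0.058) and missed the threshold. CFD (r = 0.22), SCD (r = 0.15) and PCK1 (r = -0.08) had limma adjusted p values of 0.30, 0.48 and 0.71. LEP, not tested in that fit, had r = -0.33 (permutation p 0.040) and rho = -0.24 (permutation p 0.13). The other FASN probes were also unequal, A_73_101920 and A_73_104455 rising with ADIPOQ (r = 0.47 and 0.42) and A_73_101323 having r = -0.30 (limma adjusted p 0.13).

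With the group means of all 43 animals removed, the 2 animals farthest from the median of ADIPOQ were 76 and C44. Leaving them out, r was 0.76 for CIDEC, 0.72 for FABP4 and 0.63 for FASN. The alternative fit without 2 animals left out 76 and K12, the farthest before group means were removed. Within the 13 Holstein controls r was 0.96 for CIDEC (rho = 0.96, permutation p 1e-05 for both), 0.93 for FABP4 (rho = 0.83, permutation p 2e-05 and 0.00076) and 0.59 for FASN (rho = 0.58, permutation p 0.035 and 0.041). Within the 21 unknown animals r was 0.82, 0.83 and 0.82 for the 3 genes, and 0.62, 0.61 and 0.64 without the 2 farthest animals. The slope on ADIPOQ was 0.15 for FASN in the Holstein controls and 0.39 in the unknown animals, a difference of 0.24 ± 0.10 with a limma adjusted p of 0.19, and no probe of the array differed in slope by limma after adjustment (3352 at an unadjusted p under 0.05).

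Scan days of 6 or more animals allowed the relation to be seen within a batch. With exact permutation tests, r of CIDEC with ADIPOQ was 0.84 among 6 Holstein controls of 1 day (p 0.042), 0.47 among 7 unknown animals of another (p 0.29) and 0.59 among 8 positive and unknown animals of a further day (p 0.12). For FABP4 r was 0.32 (p 0.55), 0.74 (p 0.062) and 0.54 (p 0.17). All 6 values were above 0, and 1 of them passed an unadjusted p of 0.05. With scan day in place of group over all arrays, the slope was 0.71 for CIDEC and 0.75 for FABP4 (limma adjusted p 0.00032 and 1.4e-05).

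**Figure D3:**
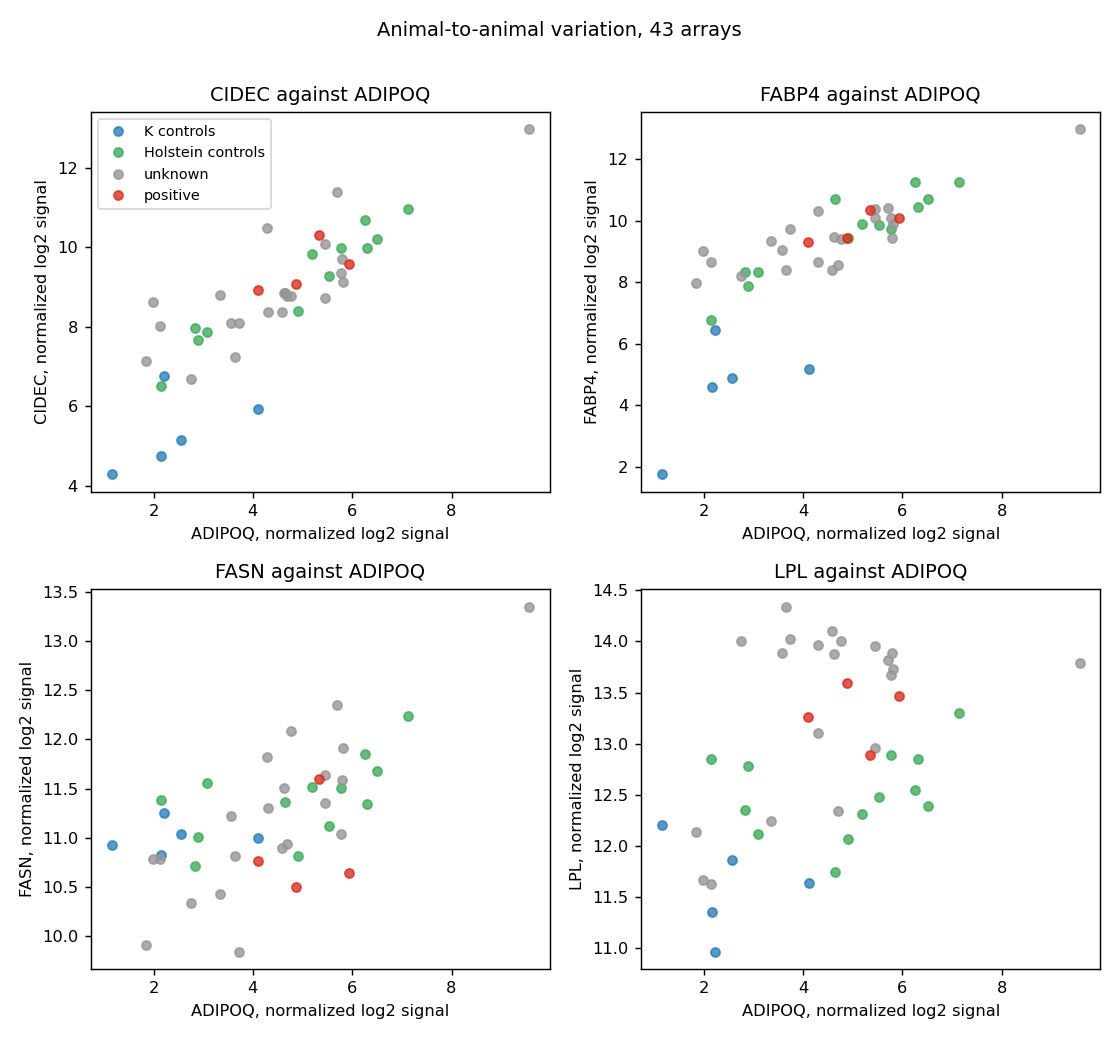
Normalized log2 signal of other genes (vertical axes) against that of ADIPOQ (horizontal axis), 1 point per animal and 1 colour per group, 43 arrays. CIDEC and FABP4 rise with ADIPOQ within the Holstein controls (r = 0.96 and 0.93) and the unknown animals (r = 0.82 and 0.83), and unknown animal 76 is the point farthest to the right at 9.57.

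Between the 9 genes, 36 pairs were computed over the 43 arrays and again within the Holstein and the unknown groups, and no adjustment was made over these pairs alone. CIDEC and FABP4 were the closest pair (r = 0.88, rho = 0.88, permutation p 1e-05 for both). FASN had r = 0.75 with CIDEC and 0.60 with FABP4, rho being 0.70 and 0.63. FASN and SCD, the successive enzymes of fatty acid synthesis and desaturation, had r = 0.45 (rho = 0.46, permutation p 0.0045 and 0.0043), and 0.59 without the 2 animals farthest in FASN.

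LPL was not tied to the droplet and carrier genes, with r = 0.06 with CIDEC and 0.03 with FABP4. PCK1 had r = 0.72 with CIDEC among the Holstein controls (rho = 0.76, permutation p 0.0042 and 0.0036) and r = -0.04 among the unknown animals (permutation p 0.85), and the difference between the 2 groups was not tested for that pair. LEP had r = -0.61 with ADIPOQ among the unknown animals (rho = -0.59, permutation p 0.0028 and 0.0053) and 0.33 among the Holstein controls (permutation p 0.27). LEP lies near the floor of the array, and animal 76 was at once highest in ADIPOQ and lowest in LEP. Without the 2 animals farthest in ADIPOQ r was -0.45. Within scan days r of LEP with ADIPOQ was -0.11 among 7 unknown animals of 1 day. It was 0.001 among 8 positive and unknown animals and 0.002 among 6 Holstein controls of 2 other days. Of the 5 unknown animals highest in LEP, 269, 36, 263 and 265 were on the first of these days, as were the 5 lowest in ADIPOQ.

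**Figure D4:**
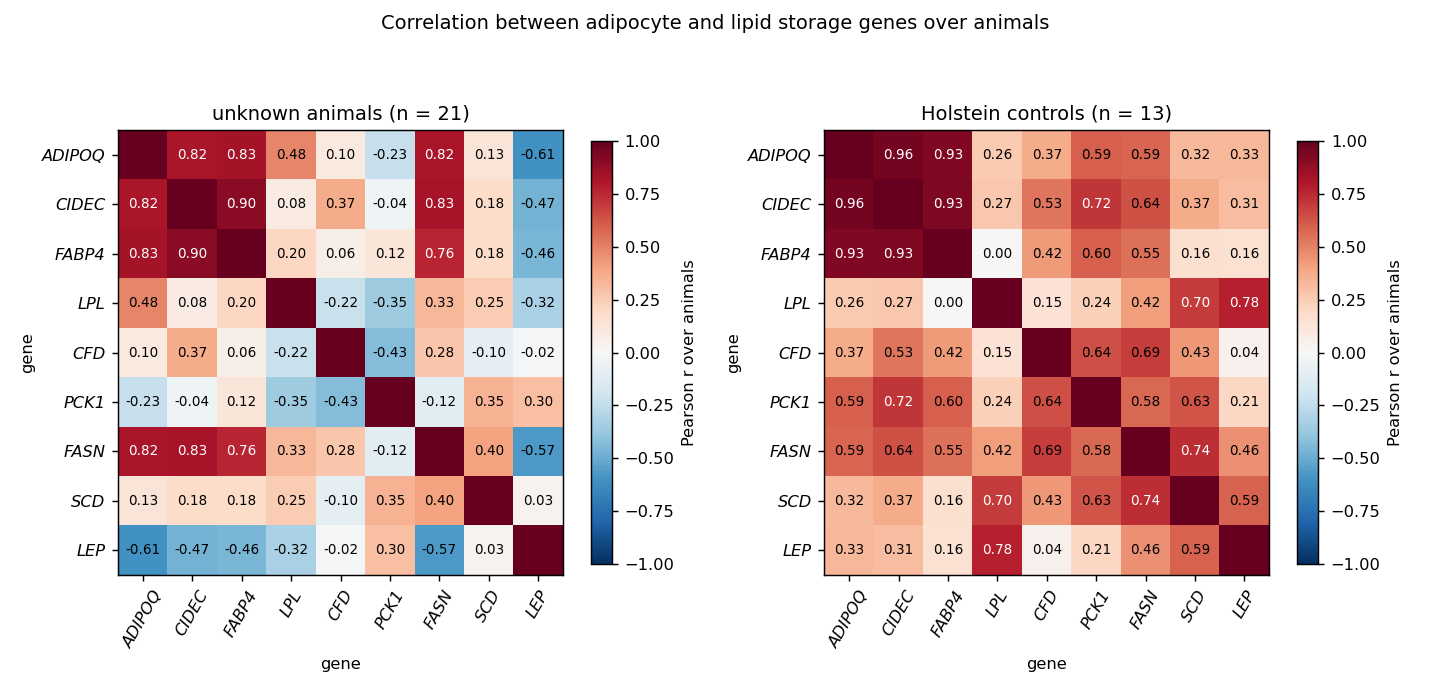
Pearson r over animals between each pair of the 9 genes (both axes list the genes, colour gives r), within the 21 unknown animals and the 13 Holstein controls. Among the unknown animals ADIPOQ, CIDEC, FABP4 and FASN form the block of high r, from 0.76 to 0.90, and CFD, LPL, PCK1, SCD and LEP lie outside it. Among the Holstein controls the genes of this block had r of 0.55 to 0.96 with each other. There PCK1 had r of 0.58 to 0.72 with these genes, and CFD and SCD had 0.69 and 0.74 with FASN.

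Technical measures moved with part of this. The residual r of ADIPOQ with the spike-in level was -0.42 (rho = -0.34, permutation p 0.011 and 0.014, adjusted p 0.083 and 0.13 over the 117 relations of this kind computed), and -0.21 without the 2 animals farthest in spike-in level. CIDEC, FABP4 and FASN had r of -0.34, -0.31 and -0.36 with the spike-in level (permutation p 0.047, 0.028 and 0.071), and -0.12, -0.16 and -0.15 without the same 2 animals. With the spike-in level as a covariate the slopes on ADIPOQ were 0.71 for CIDEC, 0.65 for FABP4 and 0.28 for FASN, all still called by limma, while 192 probes of the array were called in place of 3329. With the share of spots well above background ADIPOQ had r = -0.03 (permutation p 0.85). Of the summed marker levels, ADIPOQ had r = 0.07 with skeletal muscle, 0.05 with fibroblasts, 0.08 with macrophages, 0.34 with endothelium, 0.45 with smooth muscle and 0.55 with brown fat markers, whose brightest gene is CIDEA, also made by white fat. The summed level of the 26 further adipocyte genes, whose brightest gene was GPD1, did not follow the same course, with r = -0.10 for ADIPOQ (permutation p 0.545, adjusted 0.71), 0.07 for CIDEC and 0.04 for FABP4. All these sums add linear signals, so the brightest genes weigh most in them. Taken gene by gene, the same list had a median r of 0.16 with ADIPOQ, beside 0.01 for all probes.

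Of the 117 relations, 4 had an adjusted p under 0.05 for r and 3 for rho. CFD had r = 0.74 with the summed macrophage markers (rho = 0.68, permutation p 1e-05 for both, adjusted p 0.00058 and 0.0012), and 0.64 without the 2 animals farthest in those markers. LPL had r = 0.79 with the summed oxidation genes, whose brightest gene was FABP3, the fatty acid carrier of muscle (rho = 0.66, permutation p 1e-05 and 2e-05, adjusted p 0.00058 and 0.0012). With the summed synthesis genes, whose brightest gene was MDH1, a malate dehydrogenase, LPL had r = 0.72 (rho = 0.60, permutation p 2e-05 and 8e-05, adjusted p 0.00078 and 0.0031). The other was that of ADIPOQ with the brown fat markers (adjusted p 0.013 for r and 0.10 for rho). The part of these measures in the results was not tested.

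The probes most like ADIPOQ, ranked by r over the 43 arrays among named probes outside the 9 genes, began with the other adiponectin probe, ACRP30 (r = 0.88). S100G, a vitamin D-dependent calcium-binding protein, followed with r = 0.87, then TRARG1 with 0.82, GNAI1, an inhibitory G protein subunit, with 0.79, and LOC520598, described on the array as similar to perilipin, the droplet coat protein, with 0.77. Further down the ranking, CYP1B1, a cytochrome P450, had 0.67, and SEMA5B, PRICKLE1 and SFRP5, a secreted Wnt antagonist, 0.66 each. All of these probes were called, with the highest limma adjusted p at 0.0022. In the Holstein controls r stayed at 0.97 for ACRP30, 0.93 for S100G and 0.91 for TRARG1, and was 0.38 for CYP1B1 and 0.32 for PRICKLE1.

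**Figure D5:**
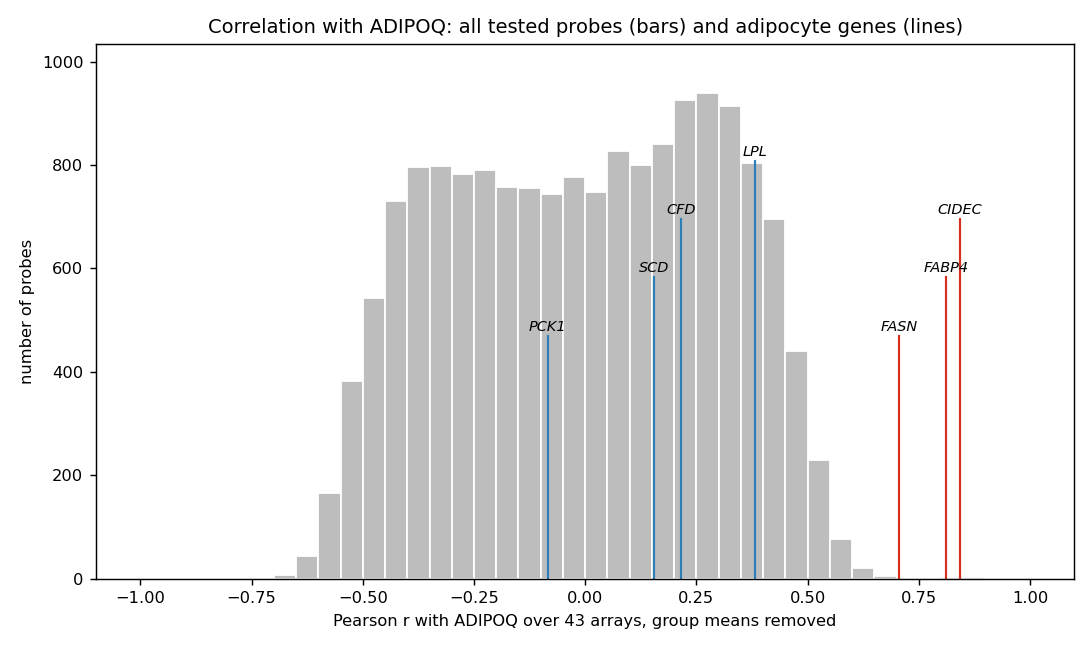
Number of probes (vertical axis) by Pearson r with ADIPOQ over the 43 arrays with group means removed (horizontal axis), for all 16353 tested probes (bars), with vertical lines at the adipocyte and lipid storage genes. CIDEC, FABP4 and FASN (r = 0.84, 0.81 and 0.71) lie at the upper end, and CFD, SCD and PCK1 (0.22, 0.15 and -0.08) within the bulk.

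Through the lists, 4 of 26 further adipocyte genes rose with ADIPOQ (TUSC5, PLIN2, CIDEA and G0S2) and 1, LGALS12, fell, with a median r of 0.16 beside 0.01 for all probes. Of 14 synthesis genes, ACACA, ELOVL6 and ACSS2 rose (r = 0.55, 0.54 and 0.50) and ME1 fell, and of 22 oxidation genes 6 rose, among them CPT1B and PPARGC1A (r = 0.50 and 0.47), and UCP3 and PPARD fell. The marker lists gave 0 calls for skeletal muscle, fibroblasts, macrophages and red blood cells, 1 each for endothelium (TEK), Schwann cells and smooth muscle (MYH11), and 2 for brown fat (CIDEA and DIO2). These counts stand beside the 20.4% of all probes called in the same fit, and the fit's dependence on the setting given above applies to them.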

How the data were processed

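Total RNA of 43 biceps brachii samples was amplified, labelled with cyanine 3 and hybridised by the authors to single-colour bovine arrays of 21475 gene probes. The deposited files hold scanner intensity values per spot, and the processed signal used here is background-subtracted and detrended by the authors' Feature Extraction software. The authors' table of normalized intensities, put on the log2 scale here, served as an alternative. Groups were taken from the labels.

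Spots of a probe were averaged after removal of outlier spots, and log2 values were normalized by fast cyclic loess over all arrays in limma 3.58.1 (R 4.3.3). Probes under 4 on at least 30 of 43 arrays were removed (5121), leaving 16354. Each pair of groups was fitted alone with lmFit and eBayes, and called at a Benjamini-Hochberg adjusted p under 0.05 and at least 2-fold. The ADIPOQ fit held group means and was called on adjusted p. "At least" folds set the dim group at the lowest signal well above background. Correlations had 100000 permutations within groups. A gene with several probes is shown by its brightest, the others being described too. Some genes that the rules would name are not reported here.

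List genes were named by size of change, up to 4 per list and comparison, or the 2 of smallest p where none was called. The 9 genes and the lists were chosen with earlier results of these data known. Normalization, background correction, dim filter, batch blocks and left-out animals were tried as alternatives. Replicates are separate animals. The fits were tested on simulated data.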

Additional observations from a re-analysis of the deposited data

Results flagged for a closer look

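Of 34 sets of 1 probe in the K controls or the positive animals, the groups of 4 or 5 animals, 1 held an animal far from the rest. On the SCD probe A_73_116477, K11 had a normalized log2 signal of 8.99, while the nearest other K control was at 8.21 and the lowest at 8.01. The gap was 0.79 of the whole range, above the limit of 0.71 for 5 animals. Chance flags about 1 such set in 20, and this probe was not called in any comparison.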

How the results depend on the processing

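No paired analysis was possible because the animal numbers name different animals in each group. Against the K controls the number of probes called fell with normexp to 1378 from 4597 in the positive animals, to 1350 from 3361 in the Holstein controls (2 of the 9 genes in place of 4) and to 804 from 1706 in the unknown animals, and rose to 7589 in the positive animals without the filter on dim probes. Between positive and unknown animals the 8 probes became 2 under 75th percentile scaling, 39 with quantile normalization, 121 with pairwise loess over all array pairs, 1 with normexp, 34 with the authors' table, 1390 without the filter, 2 with scan day as a random block, 1053 in a common fit of all 43 arrays, 17 without the 5 animals of low spike-in level, and 0 to 2 when each positive animal was left out. On its brightest probe none of the 8 genes was called in any of these, and 2 dim SCD probes were called in the fit without the filter.

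The 3329 probes of the ADIPOQ fit became 506 with quantile normalization, 57 with loess on every pair, 162 with normexp, 91 with the authors' table, 12 with FABP4, 1670 with CIDEC and 12 with ACRP30 as anchor, 7 with scan day in place of group, 115 with slide as a random block, 6 in the Holstein controls alone, 1363 without the 2 animals farthest from the median, 24 without the 5 animals of low spike-in level and 1359 without animal 76, and 3032 to 3363 when each positive or K animal was left out. With the spike-in level as a covariate 192 were called. All 21475 probes passed the dim filter after normexp. On the 16354 probes otherwise tested, normexp called 1362 (positive), 1391 (Holstein) and 830 (unknown) against the K controls, 1 between positive and unknown animals and 452 with ADIPOQ. These last 2 settings, ACRP30 as anchor, the share of spots above background and leaving out animal 76 alone were chosen after seeing the data.

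On the brightest probe of each adipocyte and lipid storage gene, no change reported above as called reversed. Reversals were followed on these probes only. They were not followed for the other FASN and SCD probes, the ACRP30 probe, the list genes or the cell markers. Under 75th percentile scaling LEP became 0.25 from -0.98 (positive minus K, called in 4 of its 15 alternatives) and 0.56 from -0.29 (positive minus unknown), PCK1 -0.16 (Holstein minus K) and LPL 0.078 (positive minus unknown). The further reversals were between positive and unknown animals. Loess on every pair gave ADIPOQ -0.61 (from 0.59), CIDEC -0.16, FABP4 -0.25 and LPL 0.11, slide as a block CFD -0.66 and CIDEC -0.14, scan day as a block CFD -0.72 and CIDEC -0.21, and the shared slides CFD -0.90 and CIDEC -0.28. CFD was -0.061 without the 5 animals of low spike-in level, and leaving out 1 positive animal gave CFD from -0.0064 to 0.10 and LPL from -0.18 to 0.052. The PCK1 slope on ADIPOQ became 0.013 with loess on every pair, 0.22 with FABP4, 0.087 with CIDEC and 0.15 with ACRP30 as anchor, 0.030 with scan day, 0.0085 with slide as a block and 0.25 in the Holstein controls. Fewer animals were fitted where animals were left out, and for the other settings the cause was not tested. The median of all probes moved by over 0.1 to 0.11 (positive minus K), -0.11 (Holstein minus K) and 0.077 (positive minus unknown) under 75th percentile scaling, to -0.13 (positive minus K) with quantile normalization, and to -0.25 (positive minus K), -0.0996 (unknown minus K) and -0.18 (positive minus unknown) with loess on every pair. Low signal over background limits ADIPOQ, LEP and PCK1.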
